A study of Mus musculus with 6 samples.

Results

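Sensors of RNA and DNA in the cytosol were examined in the transcriptome of peritoneal macrophages (PEMs), which were collected from mice after an intraperitoneal injection of starch. The members were chosen by name as 9 genes, namely Ifih1, Ddx58, Dhx58, Mavs, Zbp1, Eif2ak2, Adar, Samhd1 and Trex1. Of the 9 names, 8 matched a row of the deposited table, which lists 15415 genes, and all 8 passed the filter on low values and are among the 9030 genes tested. Trex1, which encodes a DNA exonuclease, was not analysed here. The experiment has 6 bulk RNA-seq libraries, 3 titled PEM-CKO (knockout) and 3 titled PEM-Control (control). The knockout mice carried LysM-Cre with Tim-4 fl/fl, and the control mice carried Tim-4 fl/fl without Cre, so the floxed allele was shared by all 6 libraries. The study's methods give male C57BL/6J mice aged 6 to 8 weeks for all experiments, with PEMs taken 3 days after 1 ml of 6% starch. All 6 libraries are labelled as treated with lipopolysaccharide (lps), and the methods give 1 μg/ml for 3.5 hours for macrophage activation in general. LysM-Cre is driven from the lysozyme gene Lyz2 and is active in myeloid cells, including neutrophils, so it is not limited to macrophages. In the sample labels the genotypes are swapped relative to the titles (WT for PEM-CKO), and the libraries were grouped by title.

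Cells detect viral or misplaced nucleic acids in the cytosol with a small set of proteins. RIG-I (Ddx58) and MDA5 (Ifih1) bind double-stranded RNA and pass the signal to MAVS on the mitochondrial membrane, which leads to the production of type I interferon, while LGP2 (Dhx58) modulates both receptors. ZBP1 binds Z-form nucleic acids and can start cell death, PKR (Eif2ak2) is a kinase that stops translation on binding double-stranded RNA, and ADAR (Adar) and SAMHD1 (Samhd1) limit the ligands by editing RNA and by degrading deoxynucleotides. Most of these genes are themselves induced by interferon, and macrophages exposed to lipopolysaccharide are known to produce interferon beta. The annotation in the deposited table placed all 8 genes under the innate immune response, 7 under the defense response to virus, 6 under double-stranded RNA binding, and 5 under the RIG-I-like receptor pathway.

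The libraries were first checked for the targeted gene and the Cre locus. The targeted gene Timd4, which encodes Tim-4, measured 0.333, 0.394 and 0.246 FPKM (reads scaled by gene length and by the reads of the library) in knockout PEMs, and 19.5, 12.0 and 1.19 FPKM in control PEMs, each in the order of libraries 1, 2 and 3, the order kept throughout. Every knockout library thus lay below every control library, in the direction of the titles, but control library 3 was far below the other controls. Lyz2, whose locus holds the Cre, measured 41.4, 4656 and 106 FPKM in knockout PEMs and between 7090 and 8482 FPKM in control PEMs, so knockout library 2 stood apart from the other knockout libraries. All 8 general macrophage markers were tested, and beside Lyz2 they were at 235 to 364 FPKM for Adgre1, 245 to 400.0 FPKM for Itgam, 816 to 1685 FPKM for Cd68, 83.3 to 179.6 FPKM for Csf1r, 262 to 631 FPKM for Cd14, 5.16 to 57.5 FPKM for Fcgr1 and 0.821 to 12.1 FPKM for Mertk over the 6 libraries. Results on the sensors are therefore also given without control library 3 and without knockout library 2.

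In these libraries the sensors had higher means in the knockout group for 7 of the 8 genes, by 0.52 to 0.88 on the log2 scale, and Mavs was the exception, with a value near 0 that was 0.11 after the libraries were rescaled by the median of ratios. None of the 8 passed the test over all genes, limma on log2(FPKM + 1) with an adjusted p under 0.05, which 2.57% of the tested genes passed as higher in knockout PEMs and 4.74% as lower. At an unadjusted p under 0.05 by limma, 2 of the 8 were higher, Eif2ak2 and Adar, beside 9.93% of all genes tested, and voom on the recovered reads gave the same counts of 0 and 2 (beside 3.3% and 14.8% of all genes). A log2 fold change above 0 was found for 36.5% of all tested genes, and one of at least 0.5 for 9.07% of them and for 7 of the 8 sensors. The median log2 fold change of all tested genes was -0.11, and this rescaling moved it to 0.01 and the range of the 7 sensors to between 0.67 and 1.03.

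**Figure D1:**
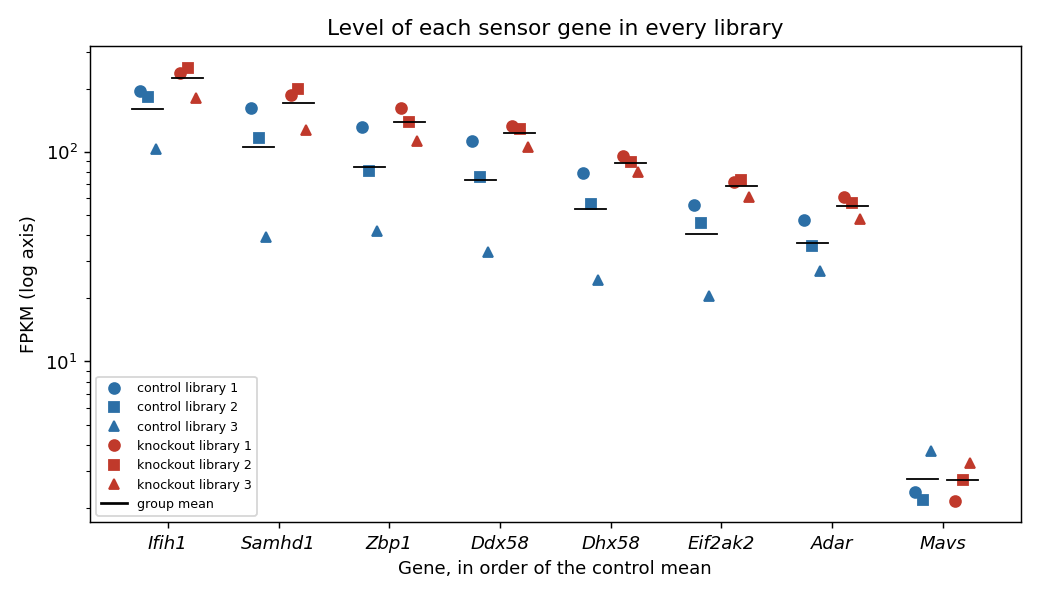
Level of each sensor gene in FPKM (log axis) in the 3 control libraries (blue) and the 3 knockout libraries (red), with marker shapes for the library number and black bars for group means. Control library 3 was the lowest of the 6 libraries for every gene but Mavs, for which it was the highest at 3.72 FPKM.

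Ddx58 and Ifih1 encode the receptors for double-stranded RNA. Ifih1 (Entrez 71586) was at 238, 252 and 181 FPKM in knockout PEMs and at 195, 182 and 103 FPKM in control PEMs. Knockout libraries 1 and 2 were above all controls, while knockout library 3 fell just under control library 2, so the groups overlapped. The log2 fold change was 0.52 (SE 0.26, 95% interval -0.10 to 1.14, limma adjusted p = 0.246). Ddx58 (Entrez 230073) was at 133, 128 and 106 FPKM in knockout PEMs and at 112, 75.6 and 33.2 FPKM in control PEMs. Here control library 1 lay between knockout libraries 2 and 3, and control library 3 was far below all others. The log2 fold change of Ddx58 was 0.88 (SE 0.40, 95% interval -0.06 to 1.82, limma adjusted p = 0.204).

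Dhx58 (Entrez 80861), which encodes the regulator LGP2, was at 95.6, 89.7 and 79.8 FPKM in knockout PEMs and at 79.4, 56.5 and 24.6 FPKM in control PEMs. No control library reached a knockout library, although knockout library 3 and control library 1 nearly touched. Its log2 fold change was 0.86 (SE 0.38, 95% interval -0.04 to 1.76, limma adjusted p = 0.198). An antisense gene, Dhx58os, overlaps Dhx58 in the GENCODE annotation, and whether reads were counted by strand is not given in the sources used here, so reads of the pair cannot be told apart.

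Mavs (Entrez 228607), the adaptor through which both receptors signal, was at 2.17, 2.73 and 3.29 FPKM in knockout PEMs and at 2.39, 2.18 and 3.72 FPKM in control PEMs. The groups overlapped fully, and library 3 was the highest of its group in both. The means were 2.73 ± 0.56 FPKM (SD, n = 3) in the knockout and 2.76 ± 0.84 FPKM in the control, with a 95% interval of -0.46 to 0.46 for the log2 fold change and a limma adjusted p of 0.997. These values rest on 316 to 502 reads per library, compared with 2204 to 60008 reads for the other 7 genes.

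Zbp1 (Entrez 58203), the sensor of Z-form nucleic acids, was at 162, 139 and 113 FPKM in knockout PEMs and at 131, 81.4 and 42.0 FPKM in control PEMs. Control library 1 exceeded knockout library 3, so the groups overlapped. The log2 fold change was 0.83 (SE 0.38, 95% interval -0.07 to 1.72, limma adjusted p = 0.209). Eif2ak2 (Entrez 19106), the gene of the kinase PKR, was at 72.1, 73.4 and 60.6 FPKM in knockout PEMs and at 55.8, 45.7 and 20.5 FPKM in control PEMs. All 3 knockout libraries were above all 3 controls. The log2 fold change of Eif2ak2 was 0.85 (SE 0.34, 95% interval 0.05 to 1.65), with a limma p of 0.0403 before and 0.162 after adjustment.

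Adar and Samhd1 encode enzymes that act on the ligands or their precursors. Adar (Entrez 56417) was at 60.8, 57.2 and 47.9 FPKM in knockout PEMs and at 47.2, 35.6 and 27.1 FPKM in control PEMs. The knockout libraries again exceeded the controls throughout, by less than 1 FPKM at the nearest pair. Adar had the lowest p of the 8 genes, with a log2 fold change of 0.61 (SE 0.21, 95% interval 0.11 to 1.11) and a limma p of 0.0232 before and 0.121 after adjustment. Samhd1 (Entrez 56045) was at 187, 199 and 127 FPKM in knockout PEMs and at 161, 116 and 39.4 FPKM in control PEMs. Control library 1 was above knockout library 3, and the controls spanned a wider range than for any other sensor. The log2 fold change of Samhd1 was 0.88 (SE 0.49, 95% interval -0.26 to 2.02, limma adjusted p = 0.280). In all, 3 of the 8 genes (Dhx58, Eif2ak2 and Adar) had every knockout library above every control library, as did 11.1% of all tested genes. In the annotation Adar overlaps Chrnb2 on the opposite strand, listed at no more than 0.171 FPKM, and Eif2ak2 overlaps Gm26637, listed at no more than 1.32 FPKM.

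The promoters of the sensors were searched for 2 sequence motifs of interferon signalling. The windows, from RefSeq on GRCm38.p6, run from 250 bases before the annotated start to 50 bases after it, and 6 of the 8 genes had one (Ifih1, Ddx58, Mavs, Eif2ak2, Adar and Samhd1). The core of the interferon-stimulated response element, searched on both strands as GAAA, any 2 bases and GAAA again, was found in 3 of these 6 genes and in 3.99% of the 27025 genes with a window. The stretches of 30 bases around the matches are printed 5′ to 3′ on the strand of the gene, with the match in capitals. They lie at chr2:62646206-62646235 (minus strand), chr4:40239804-40239833 (minus strand) and chr17:78882535-78882564 (minus strand), and the Ddx58 match is in the reverse orientation.
Ifih1: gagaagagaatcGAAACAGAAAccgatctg
Ddx58: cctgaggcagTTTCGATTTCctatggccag
Eif2ak2: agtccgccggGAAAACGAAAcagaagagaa
Counted from 1 at the annotated start, the matches began at base 33, 3 and 19 in Ifih1, Ddx58 and Eif2ak2. The gamma-activated sequence, searched as TTCNNNGAA, which reads the same on both strands, was found in Samhd1, Adar and Eif2ak2, that is 3 of the 6 genes, and in 9.55% of all genes with a window. Eif2ak2 held both motifs, which did not overlap. Mavs had neither string of letters in its window, Adar and Samhd1 lacked the first, and Dhx58 and Zbp1 had no window to search. Whether the motifs bear on the levels in these libraries was not tested.

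Library 3 was low for the sensors in both groups, and much more so in the controls. Against the mean of control libraries 1 and 2, the FPKM of control library 3 was 0.284-fold for Samhd1, 0.354-fold for Ddx58, 0.361-fold for Dhx58, 0.395-fold for Zbp1, 0.404-fold for Eif2ak2, 0.545-fold for Ifih1 and 0.654-fold for Adar. Those 7 genes all lay in the lowest 8.85% of tested genes by this difference, whereas Mavs was at 1.63-fold. Against knockout libraries 1 and 2, knockout library 3 was between 0.661-fold for Samhd1 and 0.861-fold for Dhx58, with Mavs at 1.34-fold. The coefficient of variation of the 7 genes was accordingly 27.6% to 58.3% in the controls and 9.06% to 22.3% in the knockout (n = 3 each).

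Without control library 3, the log2 fold changes of the 7 genes were between 0.23 and 0.43, compared with 0.52 to 0.88 with it, and their adjusted p by limma lay between 0.107 and 0.434. Samhd1 kept 33.1% of its log2 fold change and Adar 68.3%, the lowest and the highest share of the 7. Eif2ak2 (0.43, adjusted p = 0.107 by limma) and Adar (0.42, adjusted p = 0.156 by limma) again were the 2 genes with an unadjusted p under 0.05, beside 12.9% of all genes, while none passed after adjustment, beside 5.68%. Without knockout library 2 the range was 0.43 to 0.85, with adjusted p between 0.348 and 0.561 by limma. There no sensor had an unadjusted p under 0.05 by limma, and the same held without knockout library 1 and without control library 2. Without control library 1, the control with the highest level of all 7, the range was 0.69 to 1.30 and Adar passed the test, with a log2 fold change of 0.81 and a limma adjusted p of 0.0463, beside 3.08% of all genes that were called higher.

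Deviations of same-numbered libraries from their group means correlated weakly, at 0.109 to 0.304, which by the rule given in the methods pairs them (replicate block). With this block the log2 fold changes did not move, and all 7 genes had an unadjusted p under 0.05 by limma, beside 11.2% of all tested genes that did so in the same direction. After adjustment none of the 8 passed, beside 3.9% of all genes as higher, and the 7 lay between 0.0585 (Adar) and 0.104 (Dhx58). The smallest two-sided p that an exact permutation test can give with 3 against 3 libraries is 0.1.

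**Figure D2:**
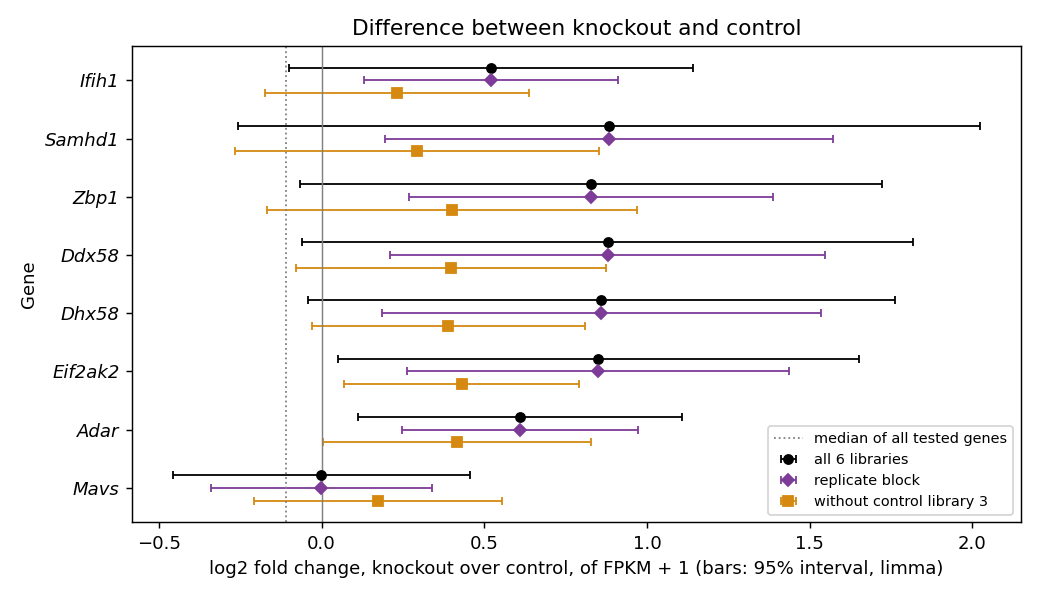
Log2 fold change of FPKM + 1, knockout over control, for each sensor gene with its 95% interval by limma, for all 6 libraries (black), with the replicate block (purple) and without control library 3 (orange). The dotted line is the median of all tested genes (-0.11), and without control library 3 the 7 genes other than Mavs sat between 0.23 and 0.43.

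Transcripts of other cell types differed between the groups, and some followed the control libraries as the 7 sensors other than Mavs did. All 5 tested B cell markers fell in the knockout, beside 4.74% of all tested genes, a share that also stands beside the counts of markers that fell below. The summed FPKM of the B cell list was 116, 79.7 and 27.7 in control libraries 1, 2 and 3 and 2.80 to 5.53 in the knockout. Of the 8 tested markers of large peritoneal macrophages 4 fell, with sums of 180.0, 115 and 39.9 FPKM in control libraries 1, 2 and 3 and 4.95 to 11.2 FPKM in the knockout. This list holds Timd4, the deleted gene, which is not among the 4, and without it the sums were 160.5, 103 and 38.7 FPKM in the controls and 4.62 to 10.8 FPKM in the knockout. Of the 5 tested markers of small peritoneal macrophages 3 fell, while Itgax, which did not pass, was at 0.79 on the log2 scale. Their sums were 3907, 1848 and 289.9 FPKM in the controls and 156 to 296 FPKM in the knockout. Retnla carried the sums of control libraries 1 and 2 only, and without it the sums were 479.9, 341 and 191 FPKM in the controls and 147 to 287 FPKM in the knockout. These 3 lists thus had the order of the sensors other than Mavs within the controls, highest in library 1 and lowest in library 3, but were lower in knockout than in control PEMs, except that control library 3 lay within the knockout range for the small macrophage markers. Mast cell markers (5 of 5 fell) summed to 38.2 to 49.3 FPKM in the controls and 1.89 to 2.27 FPKM in the knockout. Neutrophil markers (2 of 3 fell, S100a8 and Camp) summed to 159 to 172 and 41.3 to 72.6 FPKM, with Cxcr2 and Ltf at or near 0 in all libraries. The neutrophil sums were carried by S100a8, at 156 to 171 FPKM in the controls and 39.9 to 70.5 FPKM in the knockout. S100a9, which did not pass, was at 0, 2.30 and 5.12 FPKM in the controls and 0.949 to 1.21 FPKM in the knockout. Of T and NK cell markers 1 was tested (Lck), of dendritic cell markers 1 (Ccr7) and of mesothelial and fibroblast markers 4, and none passed the test by limma, with sums of 0.858 to 1.57, 2.68 to 6.47 and 12.1 to 34.4 FPKM in the knockout and 0.996 to 3.28, 7.76 to 11.4 and 2.13 to 13.1 FPKM in the controls. Ccr7 nevertheless had every knockout library below the controls, with a log2 fold change of -1.08 (limma adjusted p = 0.0553), and the collagen gene Col1a2 had every knockout library above them, with one of 1.72 (limma adjusted p = 0.0678). The T cell gene Cd3e, below the filter, was listed at 0.468, 0.169 and 0.0729 FPKM in control PEMs and at no more than 0.0161 FPKM in knockout PEMs. Of the 8 general macrophage markers 5 had an unadjusted p under 0.05 by limma (27.6% of all tested genes did) and 1, Fcgr1, passed the test (7.31% did), at 36.1 to 57.5 FPKM in the knockout and 5.16 to 6.58 FPKM in the control. Every knockout library was below the controls for Csf1r and Cd14, and above them for Cd68, and none of these 3 passed (limma adjusted p = 0.0903, 0.0631 and 0.0989). The part of these cell types in the sensor values was not tested, and in bulk RNA fewer cells of a type and less RNA per cell cannot be told apart.

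Of the 21 pairs among the 7 genes without Mavs, Ddx58 and Dhx58 kept the most even proportion. The FPKM of Ddx58 was 1.39, 1.43 and 1.33 times that of Dhx58 in knockout libraries 1, 2 and 3, and 1.41, 1.34 and 1.35 times in control libraries 1, 2 and 3. This ratio had an SD of 0.045 on the log2 scale over the 6 libraries, while Ddx58 and Dhx58 themselves had SDs of 0.76 and 0.74. Over the 21 pairs the SD of the log2 ratio was between 0.045 and 0.48 (median 0.23), and in the 7 pairs with Mavs it was between 0.66 and 1.11, while the log2 levels of the 7 genes had SDs between 0.44 and 0.86 and that of Mavs 0.32. The ratio to Mavs thus varied more than either gene in these 7 pairs, and the ratio of Adar to Samhd1, at 0.48, varied more than Adar itself at 0.44. All pairs share the same 6 libraries, so these SDs are a description of the libraries.

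Adar and Ifih1 departed from the proportion to Ddx58 in control library 3. The ratio of Ddx58 to Adar was between 2.12 and 2.38 in the other 5 libraries and 1.23 in control library 3, so Adar was less reduced there than Ddx58. Likewise, the ratio of Ifih1 to Ddx58 was 1.79, 1.96 and 1.72 in the knockout libraries and 1.74, 2.41 and 3.10 in control libraries 1, 2 and 3. The pair of RNA receptors therefore had the same proportion in control library 1 as in the knockout, and proportionally more Ifih1 in control libraries 2 and 3.

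**Figure D3:**
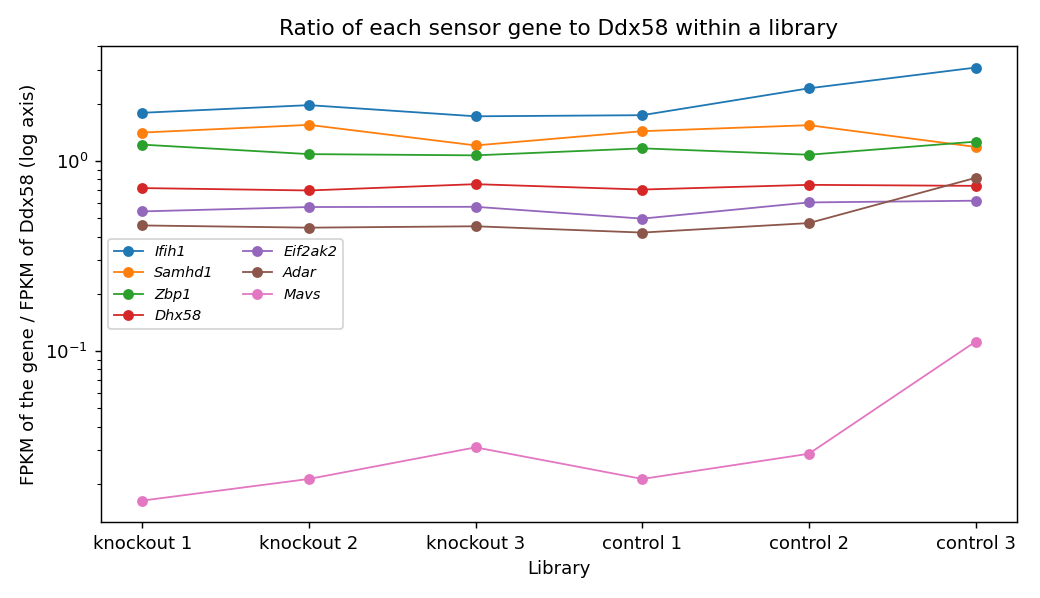
FPKM of each sensor gene divided by that of Ddx58 in the same library (log axis), for the 6 libraries on the horizontal axis, with 1 line per gene. The line for Dhx58 stayed nearly level, and those for Mavs, Ifih1, Adar, Zbp1 and Eif2ak2 were at their highest in control library 3.

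The order of the levels was the same in both groups. By FPKM, which is scaled by gene length, the means in the control were 160.2 ± 50 for Ifih1, 106 ± 61.6 for Samhd1, 84.7 ± 44.5 for Zbp1, 73.7 ± 39.6 for Ddx58, 53.5 ± 27.6 for Dhx58, 40.7 ± 18.2 for Eif2ak2, 36.6 ± 10.1 for Adar and 2.76 ± 0.84 for Mavs (SD, n = 3). Between neighbours in this order, only Adar and Mavs differed by more than the sum of their SDs in the controls. These SDs hold the spread between libraries, which the genes share. Within the control libraries the first of 2 neighbours was the higher in 3 of 3, except Samhd1 over Zbp1 and Eif2ak2 over Adar (2 of 3 each). In the knockout the means, in the same order, were 224 ± 37.4, 171 ± 38.2, 138 ± 24.4, 122 ± 14.5, 88.4 ± 8.01, 68.7 ± 7.03, 55.3 ± 6.66 and 2.73 ± 0.56 FPKM (SD, n = 3). There Ddx58 and Dhx58, and Dhx58 and Eif2ak2, also differed by more than the sum of their SDs, and every pair of neighbours kept its order in 3 of 3 libraries. Among all tested genes, the 7 were between the 82.8th and the 95.4th percentile of the control means, and the adaptor Mavs was at the 22.3rd.

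The genes most like the sensors across the 6 libraries were Rgs14, a regulator of G protein signalling, Tmem229b, Tap1, which carries peptides for MHC class I loading, Sdc3, a cell surface proteoglycan, and Irf7, a transcription factor of interferon production. Their Pearson correlations with the mean standardised level of the sensors were between 0.997 and 0.998 over 6 libraries, the highest of 5453 genes, and they are a description that rests on the same libraries, control library 3 among them. Irf7, for example, was at 319.8, 317 and 238 FPKM in knockout PEMs and at 239.8, 159 and 66.3 FPKM in control PEMs, and its log2 fold change of 1.08 did not pass the test (limma adjusted p = 0.160) and was 0.56 without control library 3.

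The genes around the sensors were examined in 9 lists of pathway genes, 157 tested genes in all when each is counted once. Of these, 7 rose and 6 fell by limma, which is 8.28% against 7.31% of all tested genes, with a median log2 fold change of 0.16. With the replicate block 35 of the 157 passed, against 9.47% of all genes. Without knockout library 1 or control library 2 none of the 157 passed (0.332% and 0.0886% of all tested genes did), and without knockout library 2 only Irf1 and Eif2ak3 did (0.698% of all genes). Without knockout library 3 the count was 10, without control library 1 it was 25 and without control library 3 it was 29, where 5.83%, 8.7% and 14.2% of all tested genes passed.

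In the list of RIG-I-like receptor and MAVS signalling, 0 of 29 tested genes rose and 2 fell, with a median of -0.02 (2.57% and 4.74% of all tested genes did). Traf5, an adaptor of TNF receptor family members, was at 12.4, 10.1 and 15.2 FPKM in knockout PEMs and 31.5, 25.6 and 25.1 FPKM in control PEMs, a log2 fold change of -1.08 (limma adjusted p = 0.0196). Ikbkg, which encodes NEMO, the regulatory subunit of the IκB kinase complex, was at 9.06, 5.46 and 9.30 FPKM in knockout PEMs and 16.9, 23.4 and 23.5 FPKM in control PEMs, a log2 fold change of -1.34 (limma adjusted p = 0.0204). For both genes the highest knockout library was below the lowest control. The ubiquitin ligases that act on RIG-I, Trim25 and Rnf135, had every knockout library above every control, with log2 fold changes of 0.69 (limma adjusted p = 0.0695) and 0.90 (limma adjusted p = 0.0665), and both passed the test with the replicate block (limma adjusted p = 0.0419 and 0.0435). Over the 29 genes 3 had every knockout library above every control and 7 had every knockout library below, beside 11.1% and 23% of all tested genes.

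The kinases and the constitutive factor below MAVS showed small differences. Tbk1 was at 80.5, 74.5 and 69.5 FPKM in knockout PEMs and 71.0, 76.2 and 73.1 FPKM in control PEMs (log2 fold change 0.03, limma adjusted p = 0.908). Ikbke had a log2 fold change of 0.08 (SE 0.14, limma adjusted p = 0.724) and Irf3 one of -0.17 (SE 0.15, limma adjusted p = 0.495), and for all 3 genes the groups overlapped.

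Among the DNA sensing and STING genes 0 of 17 passed the test by limma, with a median log2 fold change of 0.16. An unadjusted p under 0.05 by limma was found for 5 of them, all with a higher mean in the knockout. Of all tested genes 9.93% had such a p in that direction, and 27.6% in either direction. Cgas, the DNA sensor that makes the second messenger cGAMP, was at 12.4, 12.3 and 9.16 FPKM in knockout PEMs and 5.97, 7.20 and 2.76 FPKM in control PEMs. All knockout libraries of Cgas were above all controls, and its log2 fold change of 1.02 passed the test with the replicate block (limma adjusted p = 0.0277) and not without it (0.0769). Aim2, a sensor of cytosolic DNA that forms an inflammasome, had the same pattern, with a log2 fold change of 0.74 and a limma adjusted p of 0.0332 with the block and 0.0944 without it, and in all 4 of the 17 genes had every knockout library above the controls, beside 11.1% of all tested genes. Sting1, the receptor of cGAMP, was at 3.61, 4.85 and 2.36 FPKM in knockout PEMs and 3.62, 2.45 and 1.91 FPKM in control PEMs, with overlapping groups (log2 fold change 0.32, limma adjusted p = 0.435).

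For PKR, 1 of 14 tested partners and fellow kinases fell and none rose (4.74% and 2.57% of all tested genes did), with a median of 0.02. That gene was Eif2ak3, the eIF2α kinase of the unfolded protein response, at 0.899, 1.16 and 1.12 FPKM in knockout PEMs and 3.16, 3.31 and 3.27 FPKM in control PEMs, the reverse of the direction of Eif2ak2 (log2 fold change -1.04, limma adjusted p = 0.00861). None of the 11 genes of ZBP1-linked cell death passed the test by limma, with a median of 0.02. An unadjusted p under 0.05 by limma was found for 2 of them, beside 27.6% of all tested genes in either direction. None of the 13 other helicases passed either, with a median of -0.20. Of these, 5 had an unadjusted p under 0.05 by limma, all with a lower mean in the knockout (27.6% of all tested genes did, in either direction). Every knockout library lay below every control for 7 of the 13 (23% of all tested genes did).

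Of 14 tested genes of nucleic acid turnover, the setting of Adar and Samhd1, 1 rose and 2 fell (2.57% and 4.74% of all tested genes did), with a median of 0.14. Pld3, a lysosomal exonuclease, was at 317, 368 and 273 FPKM in knockout PEMs and 225, 156 and 169 FPKM in control PEMs (log2 fold change 0.80, limma adjusted p = 0.0462). It did not pass after rescaling by the median of ratios (limma adjusted p = 0.0576), by voom (adjusted p = 0.0623) or with the replicate block (limma adjusted p = 0.0510). Rnaset2b, a lysosomal ribonuclease gene with a near-identical copy, had a log2 fold change of -1.27 (limma adjusted p = 0.0196), and the split of reads between the copies is uncertain.

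Sensors of nucleic acids in endosomes, and the proteins that serve them, had 3 genes that rose and 1 that fell among 14 tested (median 0.16). Of all tested genes 2.57% rose and 4.74% fell. The RNA receptor Tlr8 was at 15.9, 24.1 and 17.9 FPKM in knockout PEMs and 8.14, 7.0 and 2.73 FPKM in control PEMs, with a log2 fold change of 1.63 (limma adjusted p = 0.0355). Tlr7, another receptor of single-stranded RNA, rose by 0.58 and the downstream factor Irf5 by 0.78 on the log2 scale (limma adjusted p = 0.0396 and 0.0297), while Tlr13, a receptor of bacterial ribosomal RNA, fell by 0.80 (limma adjusted p = 0.0433). For these 4 genes no knockout library lay within the range of the controls. Voom on the recovered reads did not call Tlr8 (adjusted p = 0.0533).

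Of 16 tested genes of the interferon system 2 rose and none fell (2.57% and 4.74% of all tested genes did), with a median log2 fold change of 0.39. Irf1 was at 187, 179.8 and 162 FPKM in knockout PEMs and 75.3, 65.6 and 76.7 FPKM in control PEMs, a log2 fold change of 1.27 (limma adjusted p = 0.00651). In contrast to the 7 sensors other than Mavs, control library 3 was the highest control for Irf1, which encodes a transcription factor of the interferon response. Stat2, a subunit of the factor that binds the interferon-stimulated response element, was at 98.8, 84.6 and 75.6 FPKM in knockout PEMs and 51.2, 36.5 and 23.3 FPKM in control PEMs (log2 fold change 1.26, limma adjusted p = 0.0383), with the same order of control libraries as those 7 sensors, and it passed neither after rescaling (limma adjusted p = 0.0521) nor by voom (adjusted p = 0.0562). Interferon beta itself, Ifnb1, was below the filter and was listed at 0.587, 0.831 and 1.14 FPKM in knockout PEMs and 0.197, 0.200 and 0.215 FPKM in control PEMs. These values rest on only 19, 27 and 36 reads in the knockout libraries and 6 reads in each control library, and were not tested.

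The interferon-induced genes that usually accompany the sensors lay in the same direction as they did. All 32 tested genes of this list had a log2 fold change above 0, beside 36.5% of all tested genes, with a median of 0.95 beside -0.11, and 24 had every knockout library above every control library, beside 11.1% of all tested genes. Only Parp14, an ADP-ribosyltransferase, passed the test, beside 2.57% of all tested genes as higher. Its log2 fold change was 0.79 (limma adjusted p = 0.0279), with 341.6 ± 27.5 FPKM in the knockout and 199 ± 29.2 FPKM in the control (SD, n = 3). Without control library 3 the median of the 32 was 0.58 and 9 of them passed, beside 14.2% of all tested genes (5.68% as higher). The sensors and this list share all 6 libraries, so one is no independent support for the other.

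**Figure D4:**
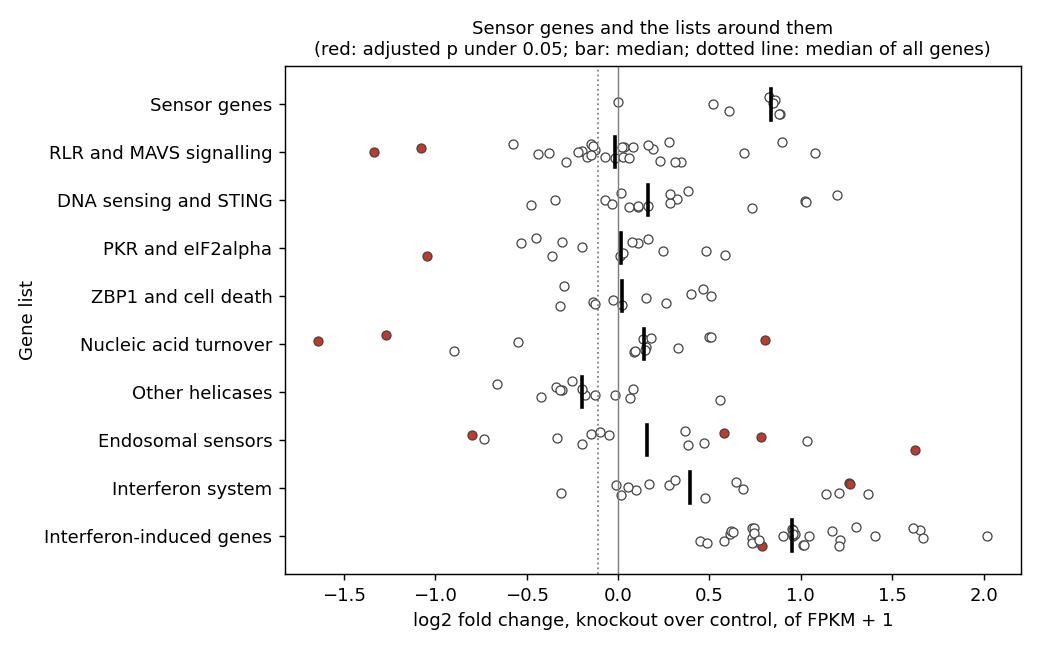
Log2 fold change of FPKM + 1, knockout over control, for each sensor gene (top row) and each tested gene of the 9 lists around them, with filled red points for an adjusted p under 0.05 by limma, black bars for list medians and a dotted line for the median of all tested genes (-0.11). The sensors other than Mavs and the interferon-induced genes (median 0.95) sat to the right, while the lists of signalling partners spread around 0.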

How the data were processed

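A single table for the series was deposited. It gives FPKM for each gene and library, which the authors obtained by scaling read counts to gene length and library size. The signal columns deposited beside them are the authors' group means of read counts divided by DESeq2 size factors. The labels name the genome build mm9, so no coordinates of the files are given, and the aligner and the counting are not given in the sources used here. The authors' own fold changes and p-values were not used. No per-sample column was left unused (0 columns).

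Read counts were rebuilt from these columns, and 100% of the values of up to 1000 reads came out whole within 0.05 reads in every library, with totals of 36170767 to 42217558 reads per library. Genes with a mean of at least 1 FPKM in 1 group were kept, limma 3.58.1 in R 4.3.3 was run on log2(FPKM + 1) by lmFit and eBayes with a trend, and p-values were adjusted by Benjamini and Hochberg over all 9030 genes with a threshold of 0.05. A count model had been planned for a table of counts, and limma for FPKM. A fold change on this scale understates the change of low genes. The fits were tested on simulated data. The sources do not say whether libraries came from separate mice, so p-values measure the spread between these libraries, which may be technical.

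Deviations from the group means of same-numbered libraries correlated at 0.109, 0.109 and 0.304 for numbers 1, 2 and 3, against -0.33 to 0.29 for other pairs. The rule for pairing (every correlation over 0.1) was therefore met, by this check alone. Other settings were no filter, at least 10 reads in every library, a pseudocount of 0.1, the replicate block, rescaling by the median of ratios, voom on recovered reads, other thresholds and each library left out.

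The sensor genes, the lists and the tests were chosen with earlier results of these data known. Named genes are the sensors, Timd4, Lyz2, up to 4 genes of each list past the threshold (1 of these is counted but not reported here), 8 fixed partners (Trim25, Rnf135, Tbk1, Ikbke, Irf3, Irf7, Cgas and Sting1) and the 5 genes most like the sensors among those with a mean of at least 5 FPKM. Ifnb1, Aim2 and the cell type markers shown singly were named after their values were seen, as was the grouping of the 7 genes without Mavs. The lists cover RIG-I-like receptor and MAVS signalling, DNA sensing and STING, PKR and eIF2α, ZBP1-linked cell death, nucleic acid turnover, helicases, endosomal sensors, the interferon system and interferon-induced genes, and markers of 9 cell types. Promoter sequences are from RefSeq (GRCm38.p6). Overlapping genes are from GENCODE on the same assembly, used for names only.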

Additional observations from a re-analysis of the deposited data

How the results depend on the processing

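The direction of the 7 sensor genes other than Mavs was the same under every setting run, and no sensor passed the test except Adar without control library 1, so the count of sensors past the threshold was between 0 and 1 when single libraries were left out. The sign of the Mavs log2 fold change, which lay near 0, turned positive with a pseudocount of 0.1 (0.0025), after rescaling (0.11), with voom (0.15) and, when single libraries were left out, ranged from -0.11 without control library 2 to 0.17 without control library 3, with 0.11 without knockout library 1. Of all tested genes 660 passed (232 higher), compared with 1421 at an adjusted p of 0.1, 48 at an adjusted p of 0.01 and 8 to 1278 when single libraries were left out (8 without control library 2, 1278 without control library 3). Rescaling gave 669 genes of which 343 were higher, and voom gave 589 of which 298 were higher. With the replicate block, which pairs libraries of the same number, 855 genes passed, and of the genes in the 9 lists 35 instead of 13. Without the filter on low values 8 genes of the lists passed (Pld3, Stat2, Tlr8 and Tlr13 were among those that did not), and 0 to 29 when single libraries were left out. The cause of these shifts was not tested. The 95% intervals of 6 of the 8 sensors include 0 with all libraries and without control library 3. Those of all 8 include 0 without knockout library 1, knockout library 2 or control library 2. All but that of Adar do so without the filter on low values and without knockout library 3. The intervals of the 7 genes other than Mavs lie above 0 with the replicate block and without control library 1. DESeq2 and edgeR were not run, and voom was the test on the rebuilt reads.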
